A study of Homo sapiens with 9 samples.

Results

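The heme synthesis genes are the 9 nuclear genes ALAS1, ALAS2, ALAD, UROS, UROD, CPOX, PPOX, FECH and ABCB10, chosen by name for their place in or beside the pathway and not for any measured value, out of 20175 protein-coding genes. The mark is H3K4me3, the trimethyl form of histone H3 lysine 4 that is typical of promoters in use, and it was profiled by CUT&RUN, which cuts out chromatin around a bound antibody with a tethered nuclease and sequences what is released. All 9 libraries came from HEL cells, an established human erythroleukemia line, transduced with lentiviral Cas9 and guides: 3 libraries were NTC, that is, cells given a guide without a target, and 2 libraries each were METTL3 KO, METTL14 KO or WTAP KO, which hit the core subunits of the enzyme that places N6-methyladenosine on mRNA. The comparison asked whether the promoter mark depends on that enzyme. Whether the edited cells were mixed populations or clones is not given for these libraries in the sources used here, nor is it said that replicates were separate cultures, so the p-values measure only the spread between these libraries. A weaker mark in such a bulk sample can come from fewer marked cells or from less mark per cell, and the 2 cannot be told apart.

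Heme is built from glycine and succinyl-CoA in a chain of enzymes that begins in the mitochondrion, passes through the cytosol and ends in the mitochondrion, where iron is inserted into protoporphyrin IX. Erythroid cells make heme for hemoglobin in great amounts through a first enzyme of their own, ALAS2, while ALAS1 opens the pathway in other cells. Transcription of many of these genes in red cell precursors depends on GATA1 and KLF1, which bind GATA sites and CACCC boxes.

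A gene counted as marked in a library if it had a peak at most 1 kb from an annotated start, and its signal was the sum of such peaks in the calibrated units of the deposited lists. The depth behind each value is unknown, since the lists give no number of reads. Where every library of a KO group was at 0, no fold is given, and the fitted log2 difference is set by the pseudocount and is no bound. Among erythroid genes, GATA1, TAL1, KLF1, EPOR and GYPC were marked in all 3 NTC libraries. Among genes of other cell types, CD3E, ALB and KRT5 had no peak in any library. A log2 difference below is on the log2(signal + 30.1) scale, which understates the change of weak genes, and limma's adjusted p is over all 12037 coding genes marked in at least 2 libraries. The KO groups share the NTC libraries, so their differences are not independent of each other.

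The heme synthesis genes were mostly marked in control cells and mostly unmarked in WTAP-KO cells, and METTL3-KO and METTL14-KO cells lay in between. In the NTC libraries 8, 8 and 7 of the 9 genes were marked, beside 47.9%, 47.5% and 46.8% of all coding genes. In METTL3-KO 5 genes were marked in each library, in METTL14-KO 4 and 3, and in WTAP-KO 1 in each. Among all coding genes the share was 34.6% and 33.5% in METTL3-KO, 21.1% and 13.2% in METTL14-KO and 11.4% and 12.9% in WTAP-KO. The genes did not follow a single course: ALAS1 and ABCB10 had a promoter peak in no KO library, ALAD and FECH in 1 each, UROS in the METTL3-KO and METTL14-KO libraries, and PPOX in 5 of 6. UROD gained peaks at its main start that no NTC library had, and ALAS2 was never marked.

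**Figure D1:**
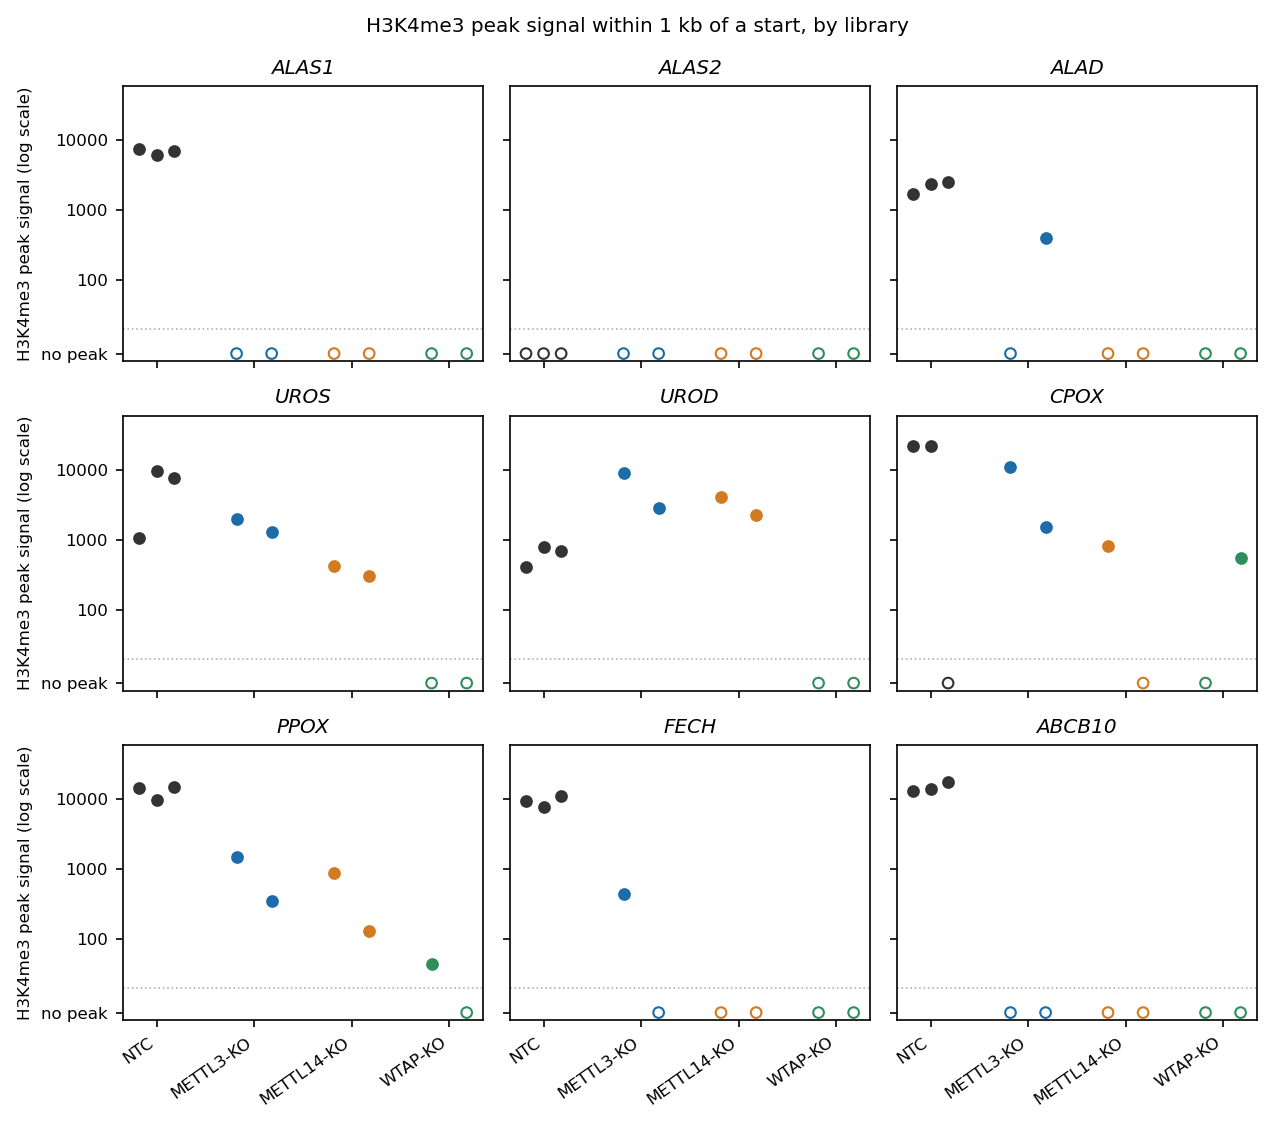
Summed H3K4me3 peak signal within 1 kb of a start (log axis, calibrated units) for each of the 9 genes, with 1 filled point per library by group and an open point where the library had no peak. ALAS1, ALAD, PPOX, FECH and ABCB10 sit between 1739 and 17972 in NTC and at 1528 or lower in every KO library, whereas UROD is higher in METTL3-KO and METTL14-KO than in NTC and ALAS2 has no peak anywhere.

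Stretches of the hg19 reference are given for 6 genes, each as the coding strand of the gene, because they carry the contrasts described below. For ALAS1 (chr3:52231852-52232101, plus strand) and ALAS2 (chrX:55057411-55057660, minus strand), the alternative first enzymes, it is the 250 bases before the outermost annotated start. For UROS (chr10:127511860-127512112, minus strand) it is the stretch common to all 6 peaks at the main start. For CPOX (chr3:98311375-98311569, minus strand) it is the stretch of intron 1 common to 6 peaks of all groups. For PPOX (chr1:161136030-161136199, plus strand) and UROD (chr1:45477758-45477833, plus strand) it is the part, outside annotated UTRs, of what 8 peaks at the PPOX start and 4 KO peaks at the UROD start had in common. Capitals mark motif matches, searched on both strands. The CACCC box was searched as CCNCNCCC. The GATA site was searched as AGATAA. The ETS site, which lies in the promoters of many genes, was searched as CCGGAAG. The CCAAT box of NF-Y was searched by the letters of its name. Matches of different motifs did not overlap, while CCNCNCCC matches overlapped each other in ALAS1 and ALAS2.
ALAS1: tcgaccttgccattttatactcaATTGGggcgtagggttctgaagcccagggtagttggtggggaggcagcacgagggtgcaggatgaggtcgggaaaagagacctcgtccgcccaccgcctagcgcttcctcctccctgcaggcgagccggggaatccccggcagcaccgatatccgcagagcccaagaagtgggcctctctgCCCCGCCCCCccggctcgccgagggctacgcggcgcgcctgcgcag
ALAS2: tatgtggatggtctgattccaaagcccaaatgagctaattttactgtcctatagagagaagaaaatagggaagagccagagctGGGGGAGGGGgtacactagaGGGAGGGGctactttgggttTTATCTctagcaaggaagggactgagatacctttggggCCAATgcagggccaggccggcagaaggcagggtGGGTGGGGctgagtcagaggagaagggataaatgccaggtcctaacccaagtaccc
UROS: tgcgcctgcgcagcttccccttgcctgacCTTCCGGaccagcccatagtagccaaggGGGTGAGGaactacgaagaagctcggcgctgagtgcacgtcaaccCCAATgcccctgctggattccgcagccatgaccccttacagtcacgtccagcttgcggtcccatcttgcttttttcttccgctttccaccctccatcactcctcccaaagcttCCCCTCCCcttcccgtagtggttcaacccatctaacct
UROD: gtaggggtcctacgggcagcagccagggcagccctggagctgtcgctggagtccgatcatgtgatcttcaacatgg
CPOX: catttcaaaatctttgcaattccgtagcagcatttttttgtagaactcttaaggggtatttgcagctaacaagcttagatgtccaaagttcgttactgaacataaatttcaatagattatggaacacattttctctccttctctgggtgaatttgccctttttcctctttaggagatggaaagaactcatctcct
PPOX: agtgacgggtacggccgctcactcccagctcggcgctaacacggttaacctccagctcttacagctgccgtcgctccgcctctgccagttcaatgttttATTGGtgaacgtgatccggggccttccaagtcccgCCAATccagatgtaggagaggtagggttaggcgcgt

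The ALAS2 stretch held 4 CCNCNCCC matches and the 1 AGATAA match of the 6 stretches. In 250 bases before the main start, CCNCNCCC was found in 68.3% of 18922 coding genes and in 7 of the 9 heme synthesis genes, AGATAA in 6.48% and in 2, CCGGAAG in 12.0% and in 1, and CCAAT in 34.3% and in 4. The UROS stretch had 2 CCNCNCCC matches, 1 CCGGAAG and 1 CCAAT, and the PPOX stretch had 2 CCAAT matches. The UROD and CPOX stretches had no match to the 4 motifs. A match is a description of the letters and not a site shown to be bound. The ALAS2 promoter stood apart in base composition: its ratio of observed to expected CpG was 0.0646, lower than in all but 3.55% of coding genes. In the other 8 genes the ratio over the same 250 bases ran from 0.548 in UROS to 1.07 in CPOX, beside a median of 0.839 over genes marked in all 3 NTC libraries and 0.539 over genes marked in none.

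The first step, the joining of glycine and succinyl-CoA to 5-aminolevulinate, showed a marked ubiquitous enzyme and an unmarked erythroid one. ALAS1 had a peak over its start, exon 1 and exon 2 with a signal of 7495, 6251 and 7096 in NTC replicates 1, 2 and 3 (mean 6948 ± 635, SD, n = 3). The widest ran from chr3:52231598-52233120, and no KO library had a peak within 5 kb of any ALAS1 start. ALAS1 fell in every KO group (log2 difference -7.85 ± 0.129, SE, in each, a size set by the pseudocount). Since it entered the test through NTC peaks alone, no p is given. ALAS2, on the X chromosome, had no peak within 5 kb of its 3 annotated starts in any of the 9 libraries and could not be tested. It shares this lack of any promoter peak with 7695 coding genes, 38.1% of all.

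ALAD, which joins 2 molecules of 5-aminolevulinate into porphobilinogen, carried the weakest mark of the genes with a peak near the main start in every NTC library. Its NTC signals were 1739, 2410 and 2557 (mean 2235 ± 436, n = 3), in peaks of 915 to 996 bp over the start, exon 1 and the beginning of intron 1. The only KO peak was in METTL3-KO replicate 2, with a signal of 408 over 382 bp of exon 1 and intron 1 (chr9:116163173-116163554), inside the NTC peak. ALAD fell in METTL3-KO (log2 difference -4.28 ± 1.02) and in METTL14-KO and WTAP-KO (-6.21 ± 1.02 in each), where no library had a peak. With 1 KO peak in all, it met the filter of 2 libraries only through NTC peaks, so no p is given. Counting only peaks at or above the NTC median signal, the difference was -4.26 in each group. All 3 calls (limma adjusted p under 0.05) were then lost. With centring on genes marked in all 9 libraries, those in METTL3-KO (-2.54) and WTAP-KO (-2.50) were lost.

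UROS, which closes the linear tetrapyrrole into uroporphyrinogen III, kept a narrow peak at its start in METTL3-KO and METTL14-KO and none in WTAP-KO. The summed signal was 1067, 9554 and 7584 in NTC replicates 1 to 3, 2008 and 1292 in METTL3-KO, 429 and 306 in METTL14-KO and 0 in both WTAP-KO libraries. METTL3-KO lay inside the NTC range, and METTL14-KO and WTAP-KO lay below every NTC library. NTC replicate 1, the lowest control, had no peak over the main start and only peaks of 883 in intron 4 and 184 in intron 1 near internal starts. In NTC replicates 2 and 3 the start peak was 1798 and 1665 bp wide with a signal of 8092 and 7378, together spanning chr10:127511626-127513559. The KO peaks were 260 to 555 bp wide and lay within that span, 4 of 4. BCCIP, a coding gene on the other strand, starts 288 bp away, and all 6 of these peaks lie within 1 kb of its start too, so the mark cannot be given to 1 of the 2 genes.

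UROS fell in METTL14-KO (log2 difference -3.46 ± 0.955, limma adjusted p = 0.0145) and in WTAP-KO (-7.16 ± 0.955, adjusted p = 0.00045). In METTL3-KO the difference of -1.39 (95% interval -3.72 to 0.931) did not pass (limma adjusted p = 0.222). Without NTC replicate 1 it was -2.38 with an adjusted p of 0.00411, and with a 5 kb window, which adds an intron 1 peak of 1777 in that library and 1706 in NTC replicate 3, it was -1.95 with an adjusted p of 0.0283. The METTL14-KO call was lost under 9 of 26 alternatives, with adjusted p from 0.057 when only these 2 groups were fitted to 0.722 with centring on genes marked in all 9 libraries, and also without METTL14-KO replicate 2 (0.0676). The WTAP-KO call was lost under 3, among them the counting of only 1 start (0.0906). METTL3-KO was above the mean of the other KO groups by 3.92 ± 0.906 (limma adjusted p = 0.0205), and above every METTL14-KO and WTAP-KO library, but the call was lost under 11 of 26 alternatives, including those without METTL3-KO replicate 1 (0.122), METTL3-KO replicate 2 (0.0588) or WTAP-KO replicate 1 (0.0528).

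UROD, which removes carboxyl groups to give coproporphyrinogen III in the last cytosolic step, had its peaks at different places in NTC and KO cells. In NTC its peaks of 404, 796 and 702 lay 1692 to 2433 bp into the gene, around exon 7 near internal starts, and no NTC library had a peak within 1 kb of the main start. METTL3-KO had signals of 9015 and 2866 and METTL14-KO of 4096 and 2275, all from peaks between positions -1329 and 730 relative to the main start. WTAP-KO had no peak at either place, and no KO library had the internal NTC peak. All 4 METTL3-KO and METTL14-KO libraries were above every NTC library and both WTAP-KO libraries were below. None of the 7 KO peaks overlapped an NTC peak.

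Summed over all peaks counted for UROD, some of them also at the start of a neighbour, the signal rose in METTL3-KO to 937% of the NTC mean (log2 difference 3.00 ± 0.61, limma adjusted p = 0.00409) and in METTL14-KO to 502% (2.27 ± 0.61, adjusted p = 0.013), and it fell in WTAP-KO (-4.41 ± 0.61, adjusted p = 0.000541), where both libraries were at 0. With each list divided by its smallest step in value, the shares were 2179% and 1447%. The METTL3-KO difference was 2.18 (adjusted p = 0.0121) without METTL3-KO replicate 1 and 3.82 (0.00125) without METTL3-KO replicate 2. The METTL14-KO call was lost without METTL14-KO replicate 1 (1.85, adjusted p = 0.0678) and with the single highest peak used instead of the sum (1.92, adjusted p = 0.0711). With only peaks at or above the NTC median signal, the calls in METTL3-KO (4.01, adjusted p = 0.234) and METTL14-KO (3.55, 0.287) were lost. The fall in WTAP-KO, lost under 5 of 26 alternatives, rests on the internal peaks, and with starts of coding transcripts alone UROD is at 0 in both groups. With the peaks of all libraries merged, the region at the main start (chr1:45476597-45477969) held METTL3-KO and METTL14-KO peaks alone, and the internal region (chr1:45479618-45480359) NTC peaks alone, so neither is given a test. METTL3-KO was above the mean of the other KO groups by 4.07 ± 0.579 (limma adjusted p = 0.00263). HECTD3, a coding gene on the other strand, starts 930 bp from the UROD start, and 6 of the peaks counted for UROD lie within 1 kb of it. Every METTL3-KO and METTL14-KO library had a peak over the HECTD3 start itself. That peak gave 1523 of 2866 in METTL3-KO replicate 2 and 881 of 2275 in METTL14-KO replicate 2. The rise therefore cannot be given to 1 of the 2 genes. The widest peak of all lists was 2000 bp, while the 2 peaks of METTL3-KO replicate 1 together spanned 2060 bp here, and whether a wider NTC peak was left out of the lists at this place was not tested.

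**Figure D2:**
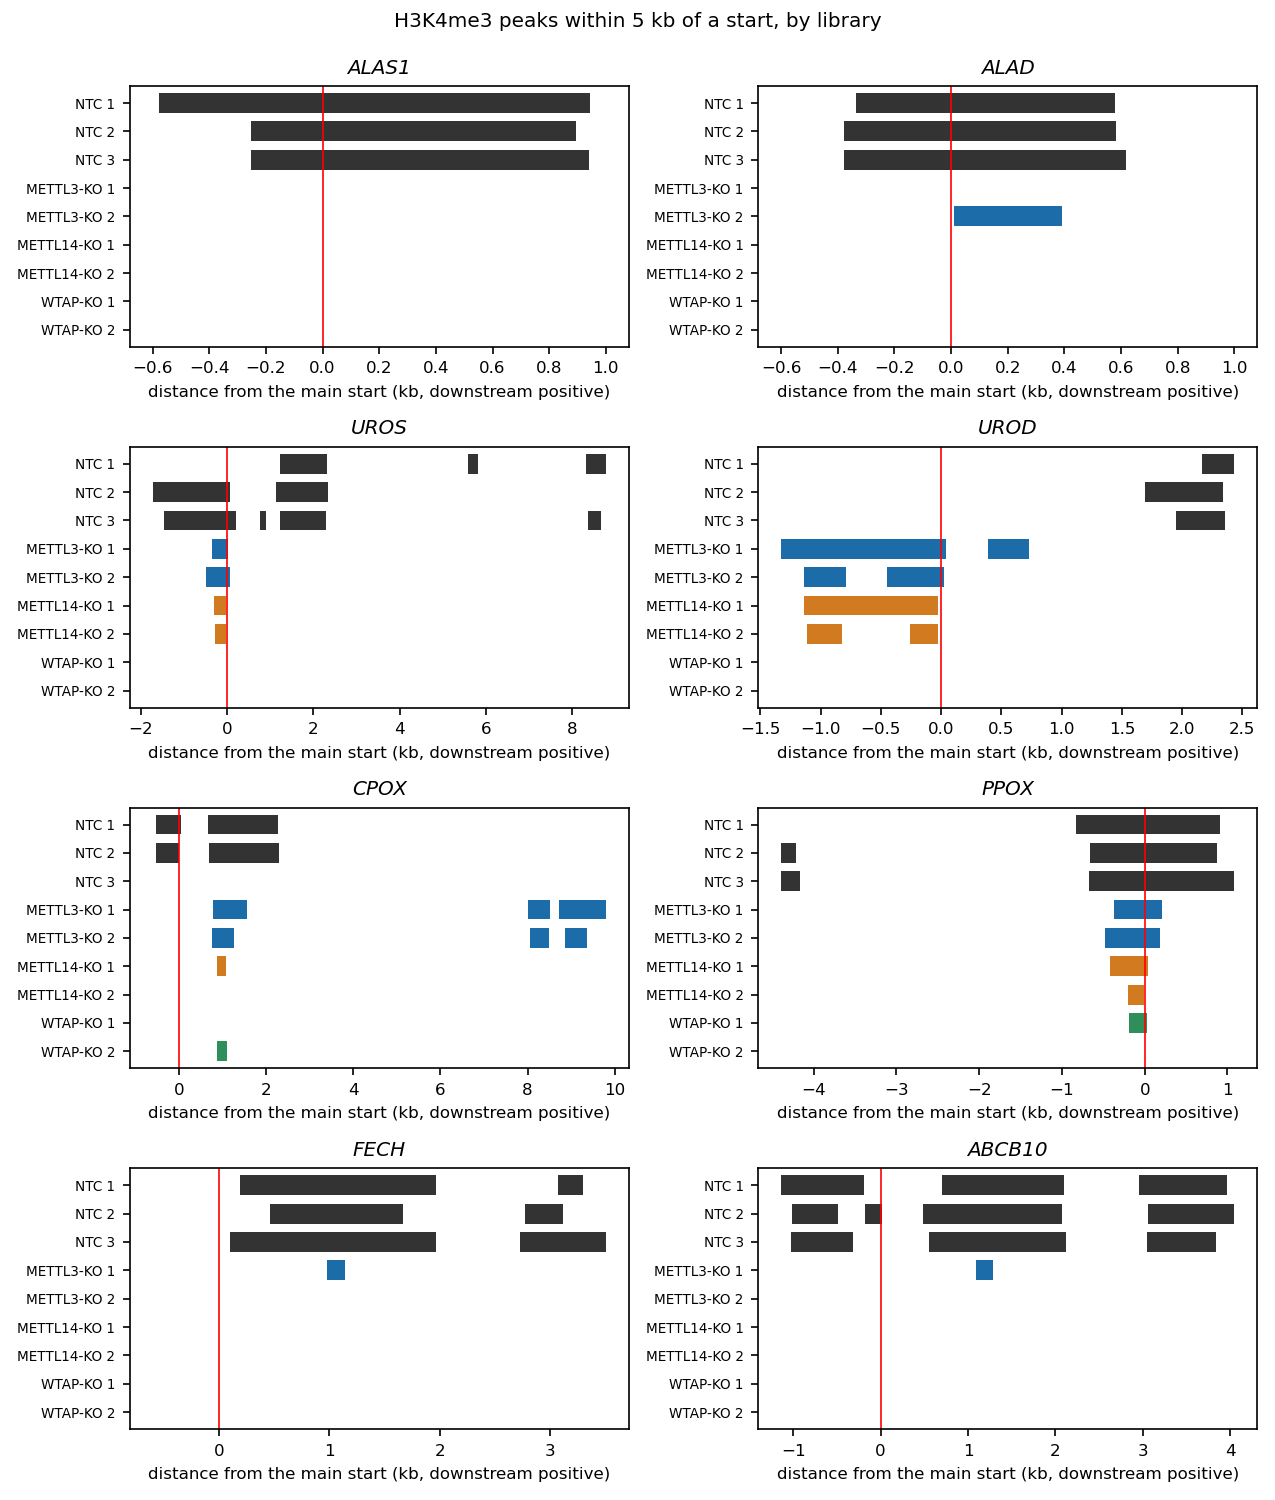
Peaks within 5 kb of a start of the 8 genes that had any, drawn to scale against the distance from the main annotated start (red line, kb, downstream positive), with 1 row per library. KO peaks of UROS, PPOX, FECH and ABCB10 sit inside the NTC peaks and are narrower, UROD peaks change place between NTC and KO, and CPOX shows none in NTC replicate 3.

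CPOX, which oxidizes coproporphyrinogen III in the mitochondrial intermembrane space, had the highest signal of the 9 genes in 2 NTC libraries and no peak in the third. The NTC values were 21932, 21778 and 0, with an intron 1 peak of 17794 and 16995 (chr3:98310149-98311769 in replicate 2) and a peak of 4138 and 4783 over the start. METTL3-KO values were 10941 and 1513, METTL14-KO 831 and 0, and WTAP-KO 0 and 550. The groups overlap through NTC replicate 3. No CPOX comparison passed with all libraries (limma adjusted p = 0.3 in WTAP-KO, 0.327 in METTL14-KO and 0.856 in METTL3-KO). Without NTC replicate 3 it fell in METTL14-KO (-7.09, adjusted p = 0.034) and WTAP-KO (-7.37, adjusted p = 0.0292) but not in METTL3-KO (-2.41, adjusted p = 0.371). The 4 NTC peaks spanned 2833 bp in all, more than the widest peak of any list, and whether a wider peak was left out for NTC replicate 3 was not tested.

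The mark of CPOX also changed in position. Of the KO libraries 4 kept a peak inside the NTC intron 1 peak, of 195 to 777 bp, and none had the peak over the start. Both METTL3-KO libraries had further peaks 8008 bp or more into the gene, over exon 5 and in intron 5, where no NTC, METTL14-KO or WTAP-KO library had any. Their signals were 3744 and 3069 in replicate 1 and 1183 and 774 in replicate 2, the last of them 1111 bp from a start and outside the 1 kb window. They lie near an internal CPOX start at 98304706 and within 1 kb of the start of ENSG00000285635, an annotated coding gene on the same strand.

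PPOX, which oxidizes protoporphyrinogen IX to protoporphyrin IX, kept a peak at its start in more KO libraries than any other of the 9 genes. The NTC signals were 14625, 9984 and 15114 (mean 13241 ± 2831, n = 3), in peaks of 1537 to 1760 bp that reached from upstream of the start into intron 3 or 4. METTL3-KO had 1528 and 352, METTL14-KO 892 and 130, and WTAP-KO 45.2 and 0. Every KO library was below every NTC library, at 7.10%, 3.86% and 0.171% of the NTC mean by group. The fall passed in METTL3-KO (-4.08 ± 0.97, limma adjusted p = 0.0081), METTL14-KO (-5.08 ± 0.97, 0.00274) and WTAP-KO (-8.10 ± 0.97, 0.000262). With each list divided by its smallest step in value, taken as the worth of 1 fragment, the shares were 17.1%, 11.0% and 0.52% by group, and the METTL3-KO and METTL14-KO calls were lost (limma adjusted p = 0.0795 and 0.0507). The METTL3-KO call was also lost without METTL3-KO replicate 2 (-3.07, adjusted p = 0.0535), and the METTL14-KO call with centring on genes marked in all 9 libraries (-2.03, adjusted p = 0.0517). Only 69 coding genes, 0.342%, had a peak in the same 8 libraries.

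FECH, which inserts iron into protoporphyrin IX in the last step, carried its mark in intron 1, with no peak over the main start. Only the peak of NTC replicate 3 reached into exon 1. The NTC signals were 9560, 7797 and 11310 (mean 9556 ± 1756, n = 3), in peaks of 1212 to 1865 bp that began 101 to 459 bp into the gene. The only KO peak was in METTL3-KO replicate 1, 166 bp wide with a signal of 440 (chr18:55252793-55252958), inside the NTC peak. FECH fell in METTL3-KO (-6.32 ± 1.05) and, with no peak in any library, in METTL14-KO and WTAP-KO (-8.30 ± 1.05 in each). Like ALAD, it met the filter of 2 libraries only through NTC peaks, so no p is given. Farther into intron 1 the NTC libraries had second peaks of 432, 663 and 2678, and no KO library had one.

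ABCB10, a transporter of the inner mitochondrial membrane that is induced during erythroid maturation and that stabilizes the iron importer mitoferrin-1, had the highest NTC mean of the 9 genes, 15079 ± 2551 (n = 3). The values were 13156, 14107 and 17972, mostly from an intron 1 peak of 10536, 12556 and 15730, with peaks of 2620, 1311 and 2243 upstream of the start. No KO library had a peak within 1 kb of a start, and ABCB10 fell in each group (log2 difference -8.96 ± 0.179, a size set by the pseudocount). As for ALAS1, no p is given. A single KO peak of 267 in METTL3-KO replicate 1 lay in intron 1, 1087 bp downstream of the main start and inside the NTC peak (chr1:229693164-229693367). Farther into intron 1, peaks of 4649, 5947 and 7495 were in the NTC libraries and in no KO library. ABCB10 and ALAS1 share their set of marked libraries, all NTC and no KO, through which alone they entered the test, with 3893 coding genes, 19.3% of all.

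The counts of called heme synthesis genes were set beside those over all coding genes, most of which were called lower too. In METTL3-KO 5 of the 8 tested genes were called lower and 1 higher (limma adjusted p under 0.05), beside 61.0% and 14.1% of the 12037 genes tested. In METTL14-KO it was 6 lower and 1 higher, beside 68.8% and 8.42%. In WTAP-KO it was 7 lower and 0 higher, beside 69.7% and 6.82%. For the mean of the KO groups it was 6 lower and 0 higher, beside 72.9% and 14.5%, and 5 genes (ALAS1, ALAD, PPOX, FECH and ABCB10) had every KO library below every NTC library, beside 68.1%. METTL3-KO was above the mean of the other KO groups for 2 genes (UROS and UROD) and below for 0, beside 30.0% and 0.598%. ALAS1, ALAD, FECH and ABCB10, which met the filter of 2 libraries only through NTC peaks, are among the genes called lower in each KO group. With 8 genes tested, nothing particular to the pathway is read from these counts.

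The median log2 difference over the 8 genes was -4.18 in METTL3-KO, -5.65 in METTL14-KO and -7.51 in WTAP-KO, beside -3.56, -5.75 and -6.20 over all genes tested. Of the 7 heme synthesis genes marked in every NTC library, 2 had no peak in METTL3-KO, 4 none in METTL14-KO and 6 none in WTAP-KO. Over all 8495 coding genes so marked it was 46.3%, 73.3% and 84.9%. Centring the libraries on genes marked in all 9 moved the median of all genes to -1.82, -2.69 and -2.49, and the share of calls that were higher from 18.8%, 10.9% and 8.92% to 25.4%, 23.4% and 23.1%. Under that centring UROD was still called higher in METTL3-KO and METTL14-KO, and the UROS difference in METTL3-KO, which did not pass in either case, turned from -1.39 to 0.349.

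**Figure D3:**
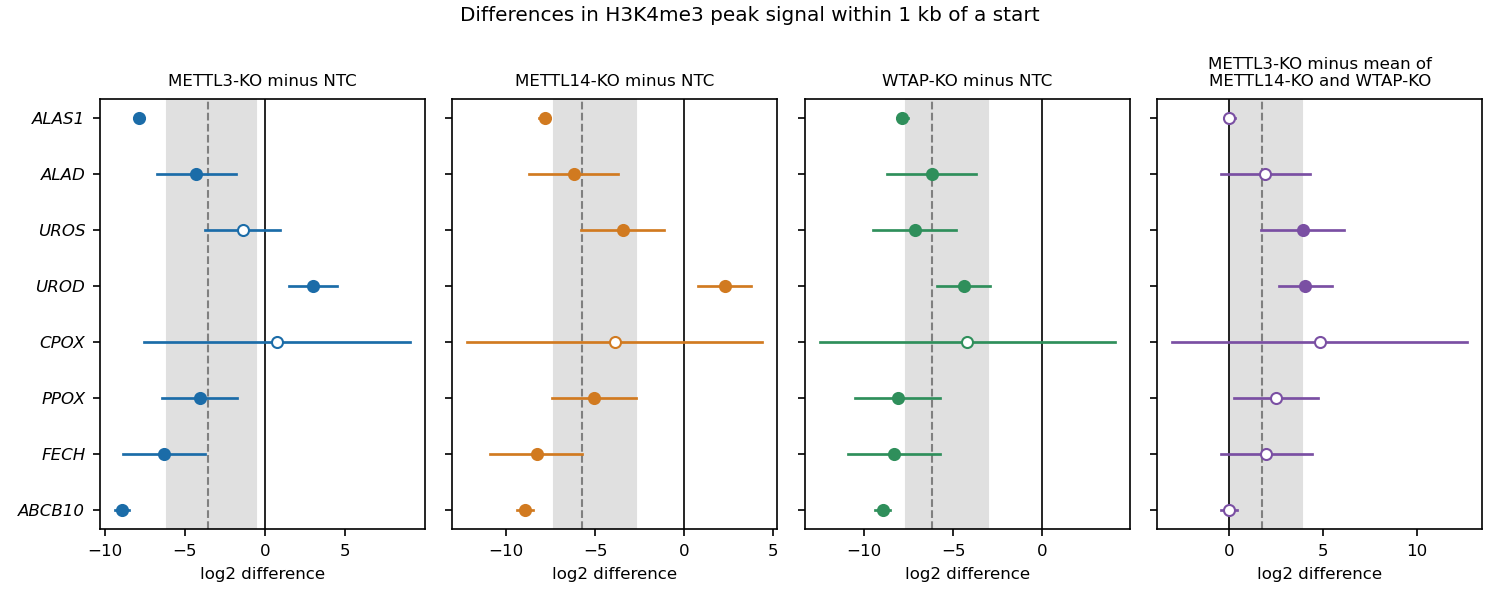
Log2 differences in promoter signal for the 8 tested genes (points, filled where limma's adjusted p was under 0.05) with 95% confidence intervals, in each KO group against NTC and in METTL3-KO against the mean of the other KO groups, with the median (dashed) and interquartile range (grey) of all 12037 genes. UROD is to the right of 0 in METTL3-KO (3.00) and METTL14-KO (2.27) and to the left in WTAP-KO (-4.41), and CPOX has intervals on both sides of 0.

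The peaks in KO cells were narrower at the median. The 33 promoter peaks of these genes in NTC had a median width of 1147 bp, and the 25 in KO had a median of 382 bp, beside 851 and 398 bp over all coding genes. Of the 25 KO peaks 15 (60.0%) overlapped an NTC peak, beside 55.7% over all coding genes, and these had a median width of 380 bp. The other 10, at the UROD main start or in the CPOX gene body, had a median of 452 bp. In PPOX the median width went from 1744 to 460 bp, and in FECH from 1781 bp to a single peak of 166 bp. Peaks from the same library share its calibration and its threshold, so these widths are given without a test.

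**Figure D4:**
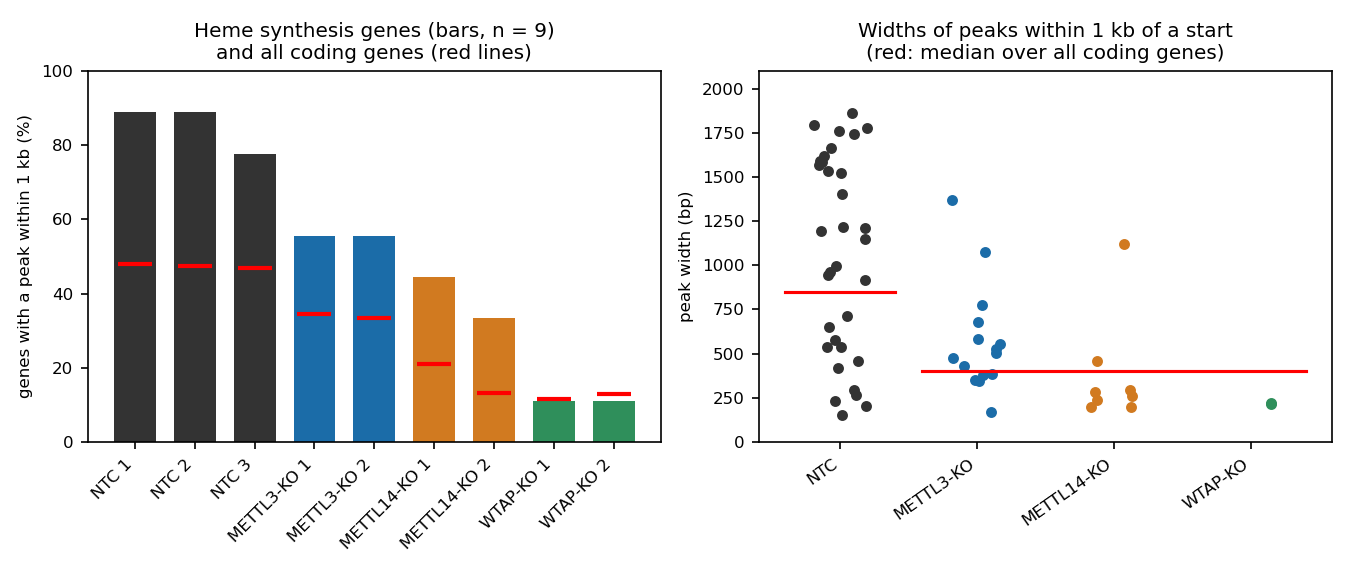
Left, the share of the 9 heme synthesis genes with a peak within 1 kb of a start in each library (bars, %) beside the share of all coding genes (red lines). Right, the width in bp of each of the 33 NTC and 25 KO peaks by group, with the median over all coding genes in red (851 bp in NTC, 398 bp in KO).

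Other genes of heme biology, 24 from a list of substrate suppliers, transporters and partners, and users and sensors of heme, were called lower about as often as all genes. Of these 22 were tested, and 13 were called lower in METTL3-KO, 15 in METTL14-KO and 15 in WTAP-KO, with 2, 2 and 1 higher. The shares called lower were 59.1%, 68.2% and 68.2%, close to those over all genes tested (61.0%, 68.8% and 69.7%). The shares called higher were 9.09%, 9.09% and 4.55%, beside 14.1%, 8.42% and 6.82% over all genes tested. Of the 16 marked in every NTC library, 8 had no peak in any KO library, beside 45.8% of all coding genes so marked. BACH1, the heme-binding repressor of heme oxygenase, was the one gene of the 24 marked in all 9 libraries, and it rose in METTL3-KO (2.48, limma adjusted p = 0.00115), METTL14-KO (1.71, 0.00593) and WTAP-KO (1.80, 0.00457). CLPX, the mitochondrial unfoldase that acts on ALAS enzymes, had no NTC peak and was marked in both METTL3-KO, both METTL14-KO and 1 of the WTAP-KO libraries, and since it entered the test through KO peaks alone no p is given. Against the other KO groups METTL3-KO was higher for 3 of the 22 tested genes (13.6%), beside 30.0% of all genes tested, so nothing particular to these genes is read from it. Besides CLPX they were 2 suppliers of the substrates. These were SHMT2, which makes glycine (5.34, limma adjusted p = 0.000112), and SUCLA2, a subunit of succinyl-CoA synthetase (4.86, 0.000223).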

How the data were processed

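H3K4me3 CUT&RUN was analysed in 9 HEL libraries, grouped by the sample labels. The authors aligned paired ends with Bowtie to hg19 and, for the spike-in, to sacCer3, calibrated by the spike-in, removed duplicates with Picard and called peaks per library. The deposited value of each peak is a signal in calibrated coverage units. Such values are no counts and were tested on a log scale, and the sequencing depth is unknown. The lists were taken to give 0-based starts, which is an assumption, and the text gives 1-based positions. No list held a peak under 150 or over 2000 bp.

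Starts came from GENCODE on hg19, the main start being that of the MANE transcript. Signals within 1 kb were summed, and log2(signal + 30.1) was tested with limma 3.58.1 (R 4.3.3, trend option, all 9 libraries and 4 groups in 1 model, Benjamini-Hochberg at 0.05) over coding genes marked in at least 2 libraries, the pseudocount being the smallest gene signal. In each list at least 99.9% of values were whole multiples, within 0.1, of a step taken as the worth of 1 fragment, 0.32 to 1.32 by library. The step was 1.14 to 1.32 in NTC, 1.07 in METTL3-KO replicate 2 and 0.32 to 0.46 in the other KO libraries. The fit recovered known changes when tested on simulated data. Those data had normal noise and no group held at 0, and only the mean of the KO groups against NTC was fitted. They therefore cannot speak to calls of single KO groups or of groups at 0. All 9 genes are named, neighbours within 1 kb of their peaks are named, and of 24 further heme genes only those called higher or kept in every KO library. Some marker genes checked are not reported here. The genes, lists and tests were chosen with earlier results of these data known. Alternatives were the pseudocount, filter, window, starts counted, highest peak, merged regions, peak threshold, scaling, groups in the fit, replicate block, variance model, coordinates, an exact permutation test and each library left out. Same-numbered libraries did not deviate together from their group means (12 pairs, r -0.0622 to 0.0979), so replicate numbers were not used as pairs. In groups of 2 the deviations mirror each other, so each r between KO groups occurs for both numbers. The 12 values are therefore not independent and the check is weak. Motifs and composition were computed from the hg19 reference, not from reads. Python 3.11.15, pandas 2.3.3, numpy 2.4.6, pysam 0.24.0 and matplotlib 3.10.9 were used.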

Additional observations from a re-analysis of the deposited data

Results flagged for a closer look

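For 2 genes the effect of METTL3-KO differed from that of the other KO groups in a direct test. UROD signal was higher in METTL3-KO than in the average of the other KO groups by 4.07 on the log2 scale (limma adjusted p = 0.00263), with both METTL3-KO libraries above both WTAP-KO libraries, which were at 0, and METTL3-KO replicate 2 (2866) below METTL14-KO replicate 1 (4096). UROS signal was higher by 3.92 (limma adjusted p = 0.0205), with both METTL3-KO libraries above all 4 others. The UROS call was lost under 11 of 26 alternatives. The contrast passed upward in 30.0% of all genes tested.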

How the results depend on the processing

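ALAS1, FECH and ABCB10 kept every direction and every call that passed, and ALAD, UROS, UROD, CPOX and PPOX did not under all alternatives. Of 1048 single-gene values over all alternatives 971 kept direction and side of the threshold, 46 no longer passed (27 of them UROS), 17 newly passed and 14 changed sign (9 CPOX, 3 UROS, 2 UROD). Depth is unknown, 2 or 3 libraries a group limit the precision, and the cause of the changes below was not tested unless the construction gives it.

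The CPOX difference in METTL3-KO (0.758) changed sign to -0.227 with a 10 times larger pseudocount, -0.992 with coding-transcript starts or 1 start a gene, -2.08 with peaks at or above the NTC median, -4.81 with merged regions, and ran from -2.41 to 2.34 over single libraries left out. That of CPOX in the mean of the KO groups (-2.45) became 0.382 with centring on genes marked in all 9 libraries. The UROS difference in METTL3-KO (-1.39) became 0.42 with 1 start a gene, 0.349 with that centring and 0.429 with merged regions. The UROD difference in the mean of the KO groups (0.285) became -0.764 with a 10 times smaller pseudocount and -0.0165 with the highest peak.

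With only peaks at or above the NTC median, heme synthesis genes called higher were 0 in METTL3-KO, 0 in METTL14-KO and 0 for METTL3-KO against the other KO groups, those lower in WTAP-KO went from 7 to 4, and genes marked per library averaged 6 in NTC, 1 in METTL3-KO, 0.5 in METTL14-KO and 0 in WTAP-KO. All genes called were then 6128 in METTL14-KO, 6102 in WTAP-KO and 888 for METTL3-KO against the other KO groups, beside 9291, 9208 and 3687. With merged regions, which are more units than genes, they were 18068 in METTL3-KO, 17384 in METTL14-KO, 17437 in WTAP-KO and 21807 for the mean of the KO groups (9032 and 10524 genes for the first and last), and heme synthesis genes higher were 2 in METTL3-KO and 2 for the mean. That last count, 0 as reported, was 1 with coding-transcript starts, 1 with 1 start a gene and 1 with centring. In METTL14-KO the higher count was 0 with the highest peak and 0 to 1 over single libraries left out, 0 without METTL14-KO replicate 1.

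For METTL3-KO against the other KO groups, the 2 genes called higher became 1 with the larger pseudocount, 1 with coding-transcript starts, 1 with 1 start a gene, 1 with centring, 1 with division by the step of each list, and 1 to 3 over single libraries left out (1 without WTAP-KO replicate 1). With centring 2 genes were lower (ALAS1 and ABCB10, at 0 in all KO libraries, -1.64 by the centring itself) and 6292 of all genes were called, of which the share higher went from 98.0% to 39.6%. All genes called were 2135 with the step division and 2412 to 4414 over single libraries left out. Genes marked per NTC library averaged 6.67 with coding-transcript starts and 6.33 with 1 start a gene (7.67 as reported), and per METTL3-KO library 5.5 with windows of 3 or 5 kb and 4.5 with 1 start a gene (5 as reported).

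With the replicate number as a block, UROS lost its METTL14-KO call (-3.05, limma adjusted p = 0.0711) and its call against the other KO groups (0.0648), PPOX gained that call (2.51, 0.0461), and CPOX in METTL3-KO was -2.41, while no other call changed. No pairing by replicate number was seen in the weak check described above. The two-sided exact permutation test of the 6 KO against the 3 NTC libraries gave its smallest possible p, 0.0238, for PPOX (Benjamini-Hochberg adjusted over all genes 0.0325). It gave 0.0714 for UROS (0.0963). For ALAS1, ALAD, FECH and ABCB10, which met the filter of 2 libraries only through NTC peaks, no p is given.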
